A study of Mus musculus with 40 samples.

Results

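The helper lineage transcription factors described here are 9 genes, Tbx21, Eomes, Gata3, Gata1, Maf, Rora, Ahr, Bcl6 and Prdm1. They were taken by symbol from the 21950 genes of the deposited RNA-seq table, and all 9 were found. CD4+ T cells leave the naive state along several routes, and each route is tied to a few of these factors. T-bet, encoded by Tbx21, directs the Th1 route, GATA-3 the Th2 route, and BCL6 the follicular (Tfh) route, which Blimp-1, encoded by Prdm1, opposes. RORα and the aryl hydrocarbon receptor (AHR) take part in the Th17 route, and c-Maf acts in several routes. Regulatory T cells (Tregs), which suppress other T cells and are defined by FOXP3, can carry some of the same factors at lower or higher levels.

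The 24 libraries were made from mouse T cells in 8 groups of 3. Conventional T cells (Tconvs) and thymus-derived Tregs (tTregs, named nTreg in the labels) came from spleens of Foxp3-GFP mice aged 2 to 4 months and were profiled resting and activated. Induced Tregs (iTregs) were made from naive CD4+ Foxp3-reporter-negative cells of 6-week-old mice over 4 days with 2 ng/ml TGF-β, IL-2 and antibodies to CD3 and CD28. They were then sorted for the Foxp3 reporter and rested for 1 day with IL-2. They were profiled at rest, after restimulation with 0.5 µg/ml anti-CD3 and 1 µg/ml anti-CD28, and after restimulation with an ORAI inhibitor (CM-4620 in the study's text) or cyclosporine A (CsA). ORAI channels carry store-operated calcium entry, and CsA blocks calcineurin, which activates NFAT. All groups carry the Foxp3 reporter. The length of activation or restimulation before RNA was taken and the inhibitor doses are not given in the sources used here, and the ages and cultures differ between Tconvs, tTregs and iTregs, so that origin and culture cannot be told apart in comparisons between them. The labels do not say whether replicates came from separate mice or cultures, so p-values measure the spread between these libraries only. Since these are bulk samples, fewer cells with a transcript and less transcript per cell cannot be told apart.

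Values are normalized counts, in which each library's gene counts were scaled by a size factor of its own. The libraries held 5256800 to 15685234 reads on genes, and 3 reads, the floor taken here, were worth 2.12 to 5.45 normalized counts, for counting error only. Differences are log2 fold changes of the normalized count plus 1, with standard errors, from one limma fit over the 24 libraries of the 11725 genes that passed a filter on low values. All 9 factors passed this filter. A gene was called changed at an adjusted p below 0.05 and a log2 fold change above 0.5 in size. T cell markers were high in every group, with summed levels of 31253 to 47236 over 7 genes. The summed level of 6 Treg markers was 1572 to 1736 in resting Tconvs, 10115 to 11003 in activated Tconvs, 37728 to 45261 in tTregs and 19776 to 26116 in iTregs. A list of 6 NK cell markers summed to 425 to 429 in resting Tconvs, 17.1 to 25 in activated Tconvs, 25.3 to 126 in iTregs and 0 in the 6 tTreg libraries.

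Sequence around an annotated start of each T-box and GATA gene is shown because the comparisons below turn on these 4 factors and because the inhibitors act on the path to NFAT. Each line gives 250 bases before and 50 bases after that start, 5′ to 3′ on the strand of the gene, from RefSeq on GRCm38.p6. Capitals mark the letters GGAAA, the core of NFAT sites, on either strand (TTTCC).
Tbx21: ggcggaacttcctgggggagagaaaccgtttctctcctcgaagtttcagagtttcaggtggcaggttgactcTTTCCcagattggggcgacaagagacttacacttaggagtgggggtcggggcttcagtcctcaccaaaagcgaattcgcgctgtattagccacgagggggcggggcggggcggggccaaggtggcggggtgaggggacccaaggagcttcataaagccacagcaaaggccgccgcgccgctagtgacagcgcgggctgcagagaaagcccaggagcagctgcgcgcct
Eomes: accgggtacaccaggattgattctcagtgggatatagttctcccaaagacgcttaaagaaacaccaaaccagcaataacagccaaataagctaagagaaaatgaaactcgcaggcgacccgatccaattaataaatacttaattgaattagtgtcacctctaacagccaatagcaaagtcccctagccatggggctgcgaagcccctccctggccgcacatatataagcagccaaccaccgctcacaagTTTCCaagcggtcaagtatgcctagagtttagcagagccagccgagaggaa
Gata3: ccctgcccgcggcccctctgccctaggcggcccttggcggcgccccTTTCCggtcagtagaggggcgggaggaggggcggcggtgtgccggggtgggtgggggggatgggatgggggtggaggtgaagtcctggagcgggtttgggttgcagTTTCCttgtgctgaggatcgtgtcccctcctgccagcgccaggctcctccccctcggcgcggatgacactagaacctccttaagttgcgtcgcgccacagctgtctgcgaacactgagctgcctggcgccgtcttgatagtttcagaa
Gata1: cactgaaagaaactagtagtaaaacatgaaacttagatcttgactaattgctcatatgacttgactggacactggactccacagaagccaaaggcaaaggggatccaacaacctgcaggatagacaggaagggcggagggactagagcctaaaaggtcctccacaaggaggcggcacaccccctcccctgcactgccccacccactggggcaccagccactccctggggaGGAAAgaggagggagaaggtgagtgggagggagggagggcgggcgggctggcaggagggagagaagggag
The Tbx21 window lies at chr11:97115282-97115581 (minus strand), the Eomes window at chr9:118477939-118478238 (plus strand), the Gata3 window at chr2:9878551-9878850 (minus strand) and the Gata1 window at chrX:7967861-7968160 (minus strand). Tbx21, Eomes and Gata1 each held 1 match and Gata3 held 2, whereas 61.3% of the 32851 promoter windows of the same length held at least 1. The windows of Gata3, Gata1 and Prdm1 lie inside the gene spans given below, as does the Bcl6 window at chr16:23981234-23981533. Another Bcl6 window covers the start at the end of its span. For Gata3, Gata1 and Prdm1 the starts at the ends of the spans were not examined. Promoter windows were found for 7 of the 9 factors. The letters TGANTCA, which allow any central base where the AP-1 site has C or G, were found in 7.8% of windows. They were present in 1 of these 7 factors, Prdm1, at 48 bases before the start. That match reads TGAATCA, without the central C or G. The AHR response core GCGTG (or CACGC) was present in the windows of Prdm1 and Rora, and in 32.4% of all windows. The letters GATAA on either strand, a form of the site of GATA factors, were in 25.4% of all windows and in no window of these 7 factors. Another form, GATAG, was not counted, and it stands in the Gata3 and Gata1 windows above. Matches of this kind describe letters and do not show binding.

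Per kilobase of exon, Gata3 was the highest of the 9 factors in all 8 groups, at 243 to 892 normalized counts per kb as group means. In resting Tconvs the per-kb levels of Rora, Prdm1, Maf and Bcl6 were 47.1, 22.7, 21.8 and 19.6, and those of Tbx21, Gata1, Ahr and Eomes were 8.29, 7.86, 3.72 and 2.55. In restimulated iTregs Maf stood next to Gata3, at 113 against 335 per kb, and Tbx21 followed at 70.2. In resting tTregs Gata1 reached 448 per kb, second to Gata3 at 627. The plot of all 24 libraries shows each factor on its own scale.

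**Figure D1:**
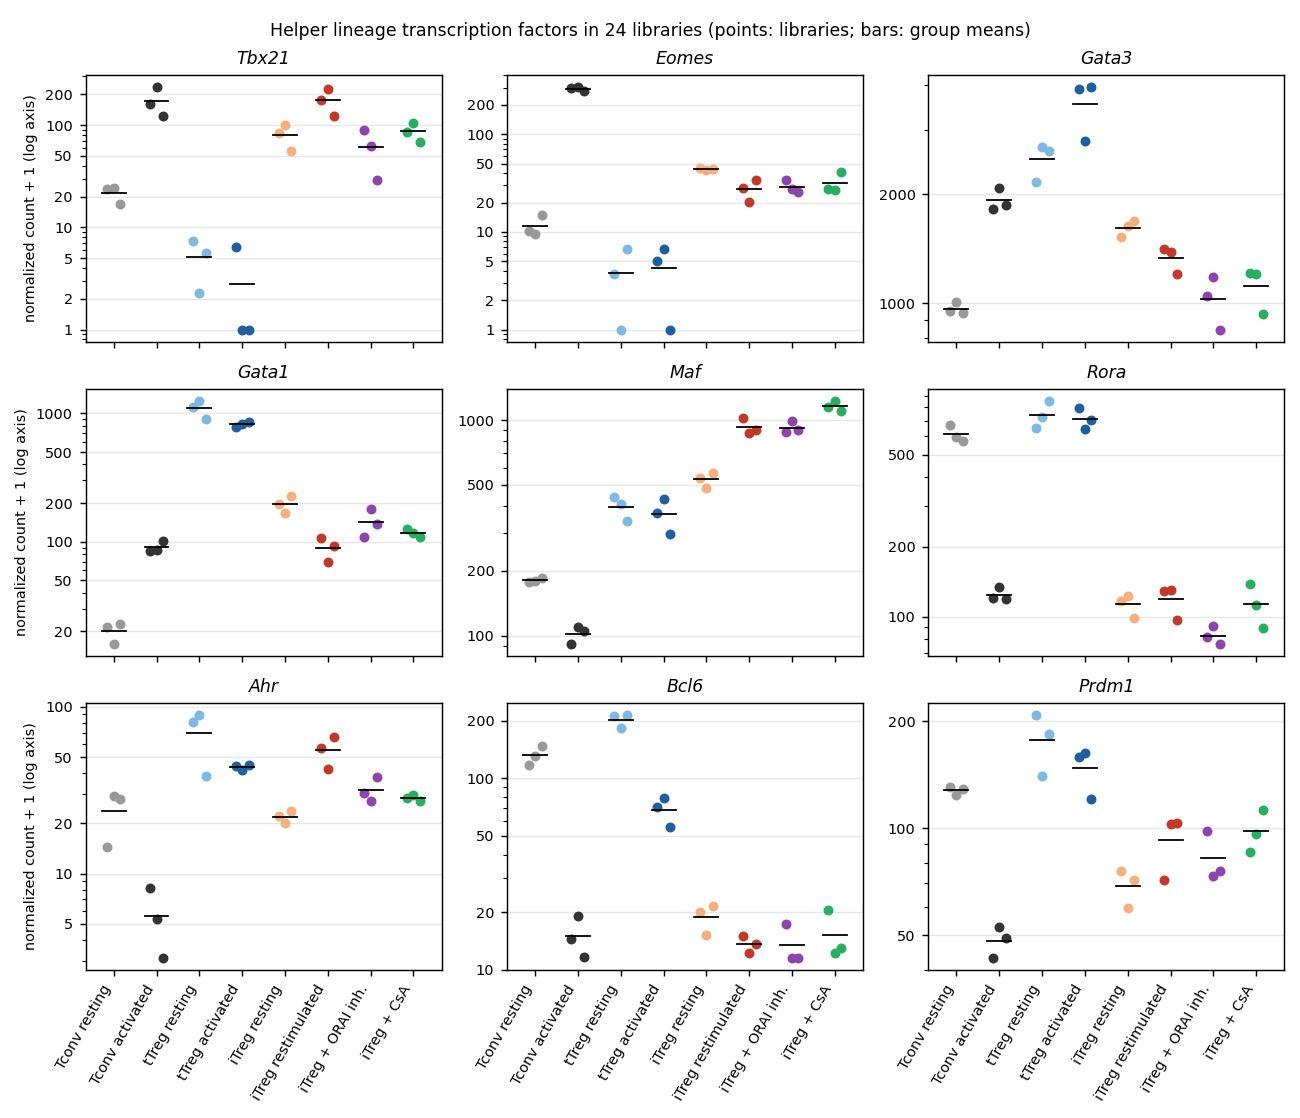
Normalized count plus 1 on a log axis for each of the 9 factors, with 1 point per library and a bar at the mean of each group of 3. Gata1 is at least 781 in every tTreg library and at most 226 in all others, Eomes is at least 277 in the activated Tconv libraries and at most 44.3 in all others, and Tbx21 and Eomes lie at or near the floor in tTregs.

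Tbx21 (chromosome 11, 97098071 to 97115331, minus strand, GRCm38) encodes the Th1 regulator T-bet. In resting Tconvs the 3 libraries had 22.6, 23.4 and 15.8 normalized counts, and in activated Tconvs 159.8, 236 and 120.3. In tTregs there were 7, 1 and 4 reads at rest and 4, 0 and 0 reads after activation, which lies at or near the floor. iTregs had 83.3, 98.9 and 54.6 normalized counts at rest and 175, 226 and 123 after restimulation. The restimulated iTregs and the activated Tconvs were not told apart (log2 difference 0.03 ± 0.56, adjusted p = 0.97, with an interval from -1.133 to 1.198). In order of level, the groups of restimulated iTregs, activated Tconvs, iTregs with CsA, resting iTregs and iTregs with the ORAI inhibitor formed a run of neighbours that were not told apart. That run stood above resting Tconvs (adjusted p = 0.033 for the last step), and resting Tconvs stood above resting tTregs (adjusted p = 0.0019). The fitted folds against tTregs depend on the pseudocount and are no bounds. NK cells also express T-bet, and the NK cell markers were lower in activated than in resting Tconvs. Whether NK cells contributed to the Tbx21 level was not tested.

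Eomes (chromosome 9, 118478212 to 118486132, plus strand) encodes a second T-box factor, known from cytotoxic lymphocytes. It had 9.26, 8.44 and 14 normalized counts in resting Tconvs and 295, 306 and 277 in activated Tconvs. tTregs had 3, 0 and 5 reads at rest and 3, 6 and 0 reads after activation. The iTregs had 44.3, 42.4 and 43.2 normalized counts at rest and 27.2, 19.1 and 32.7 after restimulation. Both T-box genes were thus higher in activated than in resting Tconvs, and in iTregs Tbx21 had a higher and Eomes a lower mean after restimulation. Restimulated iTregs had far less Eomes than activated Tconvs (-3.46 ± 0.56, adjusted p = 1.9e-05) while their Tbx21 levels overlapped.

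Gata3 (chromosome 2, 9857078 to 9890034, minus strand) encodes the Th2 regulator, which Tregs also use. Its level was 952, 1005 and 938 normalized counts in resting Tconvs and 1821, 2078 and 1869 in activated Tconvs. tTregs had 2163, 2689.9 and 2632 at rest and 3897, 2791 and 3953 after activation. No neighbours in the order of the 8 groups were told apart by the call, from activated tTregs at the top (mean 3547) to resting Tconvs at the bottom (mean 965), although distant groups were. About 5.83% of the Gata3 exon bases overlap other annotated genes, so that reads in these bases cannot be assigned to Gata3 alone.

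Gata1 (chromosome X, 7959260 to 7978071, minus strand) encodes a GATA factor best known from erythroid, megakaryocyte and mast cells. The libraries of resting tTregs had 1113, 1251 and 911 normalized counts, and those of activated tTregs 781, 820.2 and 861. Resting Tconvs had 20.6, 15 and 21.9, activated Tconvs 83.5, 85.4 and 99.8, and resting iTregs 196, 167 and 226. Every tTreg library was therefore above every other library, and the step from activated tTregs down to resting iTregs was 2.07 on the log2 scale (adjusted p = 2.0e-09). A list of 14 genes of erythroid cells, megakaryocytes and mast cells, fixed without Gata1, summed to 17.1 to 33.6 in resting tTregs and 23.7 to 38.1 in resting Tconvs. Of these 14 genes, 9 were at 0 in every resting tTreg library and 9 in every resting Tconv library, with Tal1 and Pf4 in both sets. Only 2 of the 14 genes passed the filter on low values. No other gene overlaps the exons of Gata1 in the annotation.

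Maf (chromosome 8, 115682942 to 115707794, minus strand) encodes c-Maf, which binds genes such as Il4, Il10 and Il21. It was lowest in Tconvs, at 177, 178 and 183 normalized counts at rest and 90.7, 109 and 104 after activation. tTregs had 437, 405 and 339 at rest and 370.3, 428 and 296 after activation. The iTregs were highest, with 539, 484 and 567 at rest and 1018, 869.6 and 900.0 after restimulation. All 12 iTreg libraries lay above all other libraries for Maf. About 5.34% of its exon bases lie opposite another annotated gene.

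Rora (chromosome 9, 68653786 to 69388246, plus strand) encodes RORα, a nuclear receptor of the Th17 route that is also used by some Tregs. It had 673, 597 and 575 normalized counts in resting Tconvs, 651, 725 and 853 in resting tTregs and 795, 646 and 703 in activated tTregs. These 3 groups were not told apart from their neighbours. A large step of 2.31 on the log2 scale (adjusted p = 1.5e-11) separated them from activated Tconvs, with 119, 133 and 118, and from all iTreg libraries, which had 75.5 to 137. Ahr (chromosome 12, 35497974 to 35535038, minus strand) encodes the ligand-activated AHR. Its levels were low throughout, at 13.4, 28.1 and 27.2 in resting Tconvs, 7.18, 4.31 and 2.12 in activated Tconvs, 79.8, 88.2 and 37.6 in resting tTregs and 43.1, 40.7 and 43.6 in activated tTregs. Activated Tconvs, where 3 to 8 reads were counted, were below every other group for Ahr.

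Bcl6 (chromosome 16, 23965052 to 23988852, minus strand) encodes the repressor that directs Tfh cells. It had 116, 130.4 and 147 normalized counts in resting Tconvs and 209.5, 183 and 213 in resting tTregs. After activation the libraries had 13.5, 18.1 and 10.6 in Tconvs and 70, 77.6 and 54.5 in tTregs. All 12 iTreg libraries were low, between 10.5 and 20.5. Prdm1 (chromosome 10, 44437177 to 44528501, minus strand) encodes Blimp-1, the antagonist of BCL6. It had 129.6, 123 and 128 in resting Tconvs, 42.2, 51.7 and 48.1 in activated Tconvs, 207, 139 and 183 in resting tTregs and 158, 162 and 119.9 in activated tTregs. Blimp-1 and BCL6 repress each other's genes, and the means of both transcripts were highest in resting tTregs and fell on activation of Tconvs.

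At rest the 3 cell types already differed in most factors. Between resting tTregs and resting Tconvs 7 of the 9 factors were called, 5 higher in tTregs (Gata3, Gata1, Bcl6, Maf and Ahr) and 2 lower (Tbx21 and Eomes), where 39.3% of all genes tested were called (20.9% higher and 18.5% lower). Gata1 differed most (5.76 ± 0.18, adjusted p = 1.2e-16), and among the other factors that were higher Ahr (1.52 ± 0.33, adjusted p = 0.00056) and Gata3 (1.36 ± 0.13, adjusted p = 1.75e-08) came next. Tbx21 was lower by a fitted -2.23 ± 0.56 (adjusted p = 0.0019) and Eomes by -1.96 ± 0.56 (adjusted p = 0.0056), against tTreg levels near the floor. The call of Bcl6 (0.62 ± 0.24, adjusted p = 0.031) was lost without replicate 1 or 2 of the resting Tconvs (adjusted p = 0.10 and 0.065), and without replicate 1 or 3 of the resting tTregs (adjusted p = 0.075 and 0.079). That of Eomes was lost without replicate 2 of the resting tTregs (-1.18, adjusted p = 0.061). Between resting iTregs and resting Tconvs 8 factors were called, 5 higher in iTregs (Tbx21, Gata3, Gata1, Eomes and Maf) and 3 lower (Rora, Bcl6 and Prdm1), where 64.3% of all genes were called (34.0% higher and 30.3% lower). With a pseudocount of 0.1 the calls of Tbx21 and Eomes were lost (adjusted p = 0.082 and 0.12). Ahr, with 21.1, 19.2 and 22.8 normalized counts in resting iTregs, differed by -0.05 ± 0.33. Between resting iTregs and resting tTregs 8 were called, 2 higher in iTregs (Tbx21 and Eomes) and 6 lower (Gata3, Gata1, Rora, Bcl6, Prdm1 and Ahr), where 64.0% of all genes were called (33.3% higher and 30.7% lower). These 3 comparisons share groups with each other and with the activation comparisons, and backgrounds this high leave little to read from the counts alone.

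Activation of Tconvs moved all 9 factors, 4 up and 5 down, where 50.3% of all genes tested were called (24.8% higher and 25.5% lower). Tbx21, Eomes, Gata3 and Gata1 rose, and Rora, Bcl6, Prdm1, Maf and Ahr fell. Eomes rose most (4.70 ± 0.56, adjusted p = 2.5e-07), ahead of Tbx21 (2.97 ± 0.56, adjusted p = 8.9e-05), Gata1 (2.18 ± 0.18, adjusted p = 1.0e-09) and Gata3 (0.99 ± 0.13, adjusted p = 1.2e-06). Bcl6 fell most (-3.16 ± 0.24, adjusted p = 1.5e-10), followed by Rora (-2.31 ± 0.15), Ahr (-2.15 ± 0.33), Prdm1 (-1.41 ± 0.18) and Maf (-0.83 ± 0.12), each with an adjusted p of at most 7.95e-06. The median size of the change was 2.18 for the factors and 0.59 for all genes tested. Companion genes of the routes went both ways. Of 12 Th1 companions tested 4 rose and 7 fell, led by Il12rb2, a subunit of the IL-12 receptor (5.61 ± 0.26), and Il18r1, an IL-18 receptor chain (-2.65 ± 0.18). Of 11 Tfh companions 3 rose and 7 fell, among them the cytokine gene Il21 (2.49 ± 0.14) and the Tfh factor Ascl2 (-2.26 ± 0.67). Of 8 Th2 companions 3 rose and 1 fell, with the chemokine receptor Ccr8 at 3.92 ± 0.21, and of 7 Th17 companions 4 rose and 3 fell, with the IL-6 receptor Il6ra at -3.80 ± 0.17. Of 3 genes tested from the list of AHR targets 2 fell, Tiparp (-1.83 ± 0.14) and Nqo1 (-1.01 ± 0.29). Of 10 partners and corepressors of the factors 1 rose and 4 fell. The one that rose was Zfpm1, which encodes the GATA cofactor FOG-1 (1.65 ± 0.32, adjusted p = 0.00012).

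Activation of tTregs moved 1 of the 9 factors, where 23.2% of all genes tested were called (13.0% higher and 10.2% lower). Bcl6 fell (-1.58 ± 0.24, adjusted p = 2.0e-05), and its activated and resting libraries did not overlap. Gata3 had a higher mean after activation, but its log2 difference of 0.50 ± 0.13 (adjusted p = 0.0054) missed the size set for a call, and it was called without replicate 2 or 3 of the resting tTregs or replicate 2 of the activated tTregs (0.55, 0.54 and 0.66). Gata1 differed by -0.40 ± 0.18 (adjusted p = 0.088), and Ahr by -0.59 ± 0.33 (adjusted p = 0.17). Without replicate 3 of the resting tTregs, the library in which Ahr had 37.6 normalized counts and Gata1 911, both were called lower (-0.97 and -0.52, adjusted p = 0.023 and 0.042). For Tbx21, the call appeared without replicate 2 of the resting tTregs or replicate 1 of the activated tTregs, and rests on the 12 and 4 reads of these groups. The count of called factors was therefore between 1 and 4 when single libraries were left out. Of 12 Th1 companions 2 rose and 5 fell in tTregs, led by Il18r1 (-1.26 ± 0.18) and Il12rb2 (-1.16 ± 0.26, adjusted p = 0.0014), the latter from 44.6 to 21 normalized counts. Of 11 Tfh companions 1 rose and 4 fell, of 7 Th17 companions 2 rose and 2 fell, and of 8 Th2 companions 1 rose, Ccr8 (1.62 ± 0.21). Of 3 AHR targets Nqo1 rose (1.66 ± 0.29) and Tiparp fell (-0.63 ± 0.14), and of 10 partners Maff and Zfpm1 fell (-1.17 and -0.91).

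The difference between the responses of Tconvs and tTregs was tested directly. It was called for 8 of the 9 factors, 3 in the direction of a larger rise in Tconvs (Tbx21, Gata1 and Eomes) and 5 in the direction of a larger fall (Rora, Bcl6, Prdm1, Maf and Ahr), where 36.6% of all genes tested were called (18.1% positive and 18.6% negative). Gata3 was the exception, with a difference of 0.495 ± 0.19 (adjusted p = 0.038) that missed the size set for a call, and it was called in 8 of 24 alternatives. The call of Ahr (-1.56 ± 0.47, adjusted p = 0.010) was lost with only the groups compared (adjusted p = 0.0503). Bcl6 fell in both cell types, and more in Tconvs, by a difference of -1.58 ± 0.33 (adjusted p = 0.00059). In Rora, the Tconv libraries fell from at least 575 to at most 133 normalized counts, while the tTreg libraries stayed between 646 and 853, and the difference of the responses was -2.25 ± 0.21 (adjusted p = 2.1e-08). For Tbx21 and Eomes the tTreg side of the test rests on 0 to 7 reads per library.

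**Figure D2:**
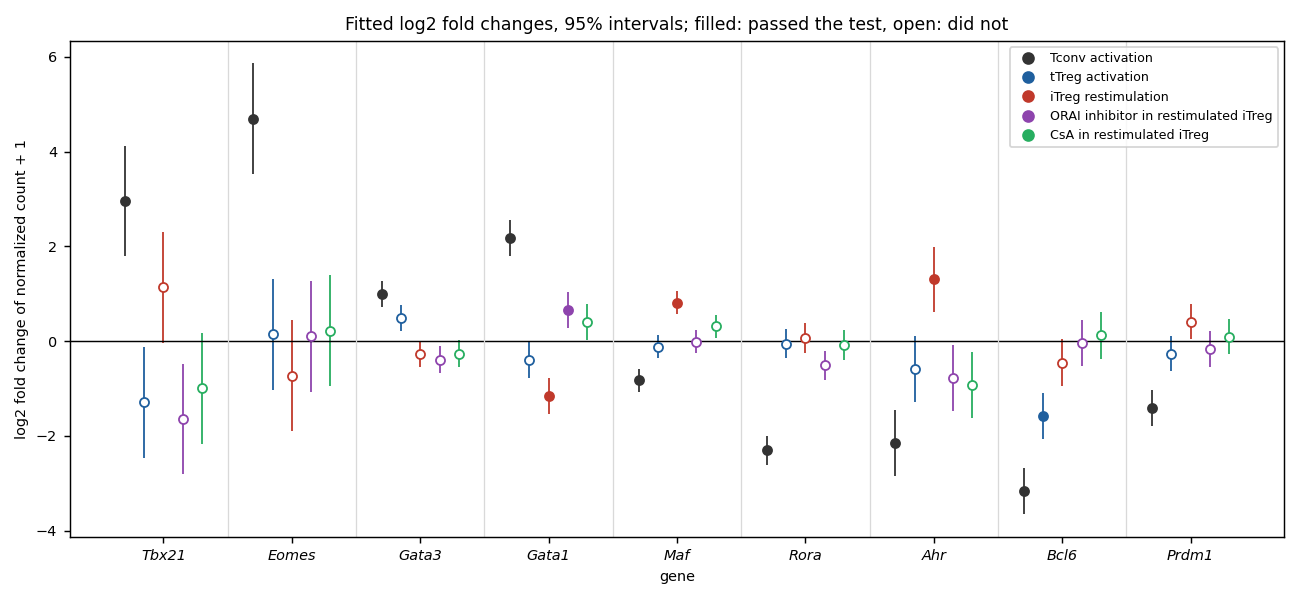
Fitted log2 fold changes of the 9 factors with 95% intervals for activation of Tconvs, activation of tTregs, restimulation of iTregs, and each inhibitor against restimulation alone, filled where the test was passed and open where it was not. All 9 Tconv points are filled, against 1 for tTregs, 3 for restimulated iTregs and 1 for the ORAI inhibitor, and all points for CsA are open.

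Restimulation of iTregs called 3 of the 9 factors, where 10.4% of all genes tested were called (5.02% higher and 5.36% lower). Maf rose (0.81 ± 0.12, adjusted p = 3.5e-05), Ahr rose (1.303 ± 0.33, adjusted p = 0.0080), and Gata1 fell (-1.15 ± 0.18, adjusted p = 0.00011). For Ahr the libraries went from 21.1, 19.2 and 22.8 normalized counts to 55.4, 41.5 and 65.4, and for Gata1 from 196, 167 and 226 to 106, 68.4 and 91.7. These calls held in all 19 alternatives, except that Maf missed a size of 1 set for a call. The size of the change had a median of 0.73 for the factors and 0.21 for all genes tested. The median of the factors is the size for Eomes, which was not called (-0.73 ± 0.56). Rora (0.07 ± 0.15), Gata3 (-0.28 ± 0.13), Bcl6 (-0.45 ± 0.24) and Prdm1 (0.41 ± 0.18) were not called. Prdm1 had 74.8, 58.5 and 70.6 normalized counts at rest and 70.5, 102 and 103 after restimulation, and it was called higher without replicate 1 of the restimulated iTregs (0.59, adjusted p = 0.034).

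The Tbx21 libraries of resting and restimulated iTregs did not overlap, and the difference of 1.13 ± 0.56 was not called in the fit of 24 libraries (adjusted p = 0.18). The standard error of this fit carries the spread of the tTreg libraries, where Tbx21 lies near the floor. The pooled SD of log2 values within groups was 1.255 in the 2 tTreg groups and 0.54 in the 4 iTreg groups. In the fit of the 12 iTreg libraries alone the same difference had a standard error of 0.34 and was called (adjusted p = 0.021). It was also called with edgeR (adjusted p = 0.016), DESeq2 (adjusted p = 0.0058), a pseudocount of 5 (adjusted p = 0.034) and with only the groups compared (adjusted p = 0.0083). Over the 19 alternatives, the difference for Tbx21 lay between 0.89 and 1.37, with adjusted p from 0.00021 to 0.49. Eomes, whose spread has the same source (SD 1.44 in tTregs and 0.28 in iTregs), was at -0.73 ± 0.56 (adjusted p = 0.42), and its adjusted p was 0.029 in the fit of 12 libraries. The T-box results are therefore given with both fits below.

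**Figure D3:**
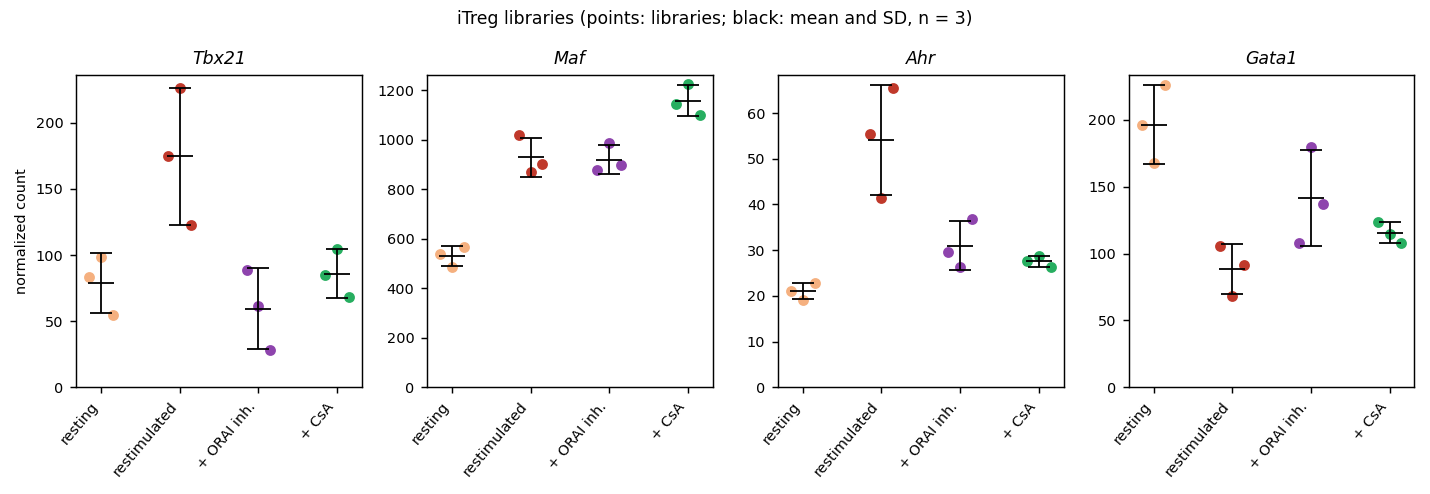
Normalized counts of Tbx21, Maf, Ahr and Gata1 in the 12 iTreg libraries, with 1 point per library and the mean and SD of each group of 3, on axes that start at 0. Tbx21 is at least 123 in the libraries of restimulation alone and at most 105 in all others, and Maf is at least 869.6 in the restimulated libraries with and without inhibitor.

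Among the companions, of 12 Th1 genes tested 7 rose and 3 fell on restimulation, where 10.4% of all genes tested were called. Their median difference was 1.08, against -0.01 for all genes tested. The same list had a median of -0.55 on activation of Tconvs and -0.38 on activation of tTregs. Il12rb2 rose most (2.56 ± 0.26, adjusted p = 4.9e-07), from 806 to 4743 normalized counts, and Hlx, a homeobox factor of Th1 cells, came next with means of 1.87 and 12.8, the first of which lies below the floor. Of 11 Tfh companions 2 rose and 1 fell, with Il21 at 2.00 ± 0.14 and Slamf6, an adhesion receptor of T cells, at -1.72 ± 0.15. Of 7 Th17 companions 3 rose, among them the chemokine gene Ccl20 (1.94 ± 0.39) and Stat3 (0.82 ± 0.10). Of 8 Th2 companions 1 rose, the cytokine gene Il24 (2.20 ± 0.39). Of the 3 AHR targets tested Cyp1a1, which encodes a xenobiotic-metabolizing enzyme, rose (2.03 ± 0.56, adjusted p = 0.014) from 3.23, near the floor, to 16.5 normalized counts, and Tiparp, an AHR-induced repressor of AHR, rose (0.53 ± 0.14, adjusted p = 0.011). Nqo1, the other of these targets, was not called.

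The response of iTregs to restimulation differed from that of tTregs to activation in 6 of the 9 factors, where 21.3% of all genes were called (9.01% positive and 12.3% negative). The difference was positive for Tbx21, Maf, Ahr and Bcl6 and negative for Gata3 and Gata1. For Tbx21 it is the difference between 1.13 and -1.29, neither of them called, and the tTreg side rests on 0 to 7 reads per library. For Bcl6, whose resting level was 17.9 in iTregs and 202 in tTregs, it is the difference between -0.45 and -1.58. Against the activation of Tconvs, 8 of the 9 factors responded differently, where 44.2% of all genes were called (21.7% positive and 22.6% negative). Restimulated iTregs differed from activated Tconvs in 5 factors, with 3 higher (Prdm1, Maf and Ahr) and 2 lower (Gata3 and Eomes), where 44.3% of all genes were called (24.4% higher and 20.0% lower). The Gata3 call (-0.53 ± 0.13) was lost without replicate 2 of the activated Tconvs (-0.47) or replicate 3 of the restimulated iTregs (-0.46). Eomes differed by -3.46 as given above, Ahr by 3.40 ± 0.33 (adjusted p = 1.4e-08) and Maf by 3.19 ± 0.12 (adjusted p = 1.2e-15). From activated tTregs, restimulated iTregs differed in 8 factors, where 59.3% of all genes were called (30.5% higher and 28.8% lower), and Ahr was the one that was not called (0.32 ± 0.33). For Gata1 the restimulated iTregs and activated Tconvs differed by -0.03 ± 0.18, with an interval from -0.42 to 0.35, and for Rora by -0.08 ± 0.15, with an interval from -0.39 to 0.24. Bcl6 differed by -0.12 ± 0.24 and was called lower in iTregs after quantile normalization (-0.85, adjusted p = 0.0033).

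Inhibitors were compared with restimulation alone, and both comparisons use the same 3 restimulated libraries. With the ORAI inhibitor 1 of the 9 factors was called, where 1.98% of all genes tested were called (1.05% higher and 0.930% lower). Gata1 was higher under the inhibitor, with 108, 179.6 and 137 normalized counts against 106, 68.4 and 91.7 (0.66 ± 0.18, adjusted p = 0.049). This call lies at the threshold. It was lost without replicate 2 or 3 of the restimulated iTregs (0.49 and 0.70, adjusted p = 0.29 and 0.11), and without replicate 2 or 3 of the inhibitor-treated iTregs (0.48 and 0.67, adjusted p = 0.30 and 0.12). It was also lost when the fit held the compared groups alone (adjusted p = 0.072), with a pseudocount of 0.1 (adjusted p = 0.056) and with no filter (adjusted p = 0.064). In all, 9 of the 19 alternatives lost the call of Gata1, and adjusted p was between 0.0097 and 0.30. With CsA, Gata1 had 124, 115 and 108 normalized counts (0.40 ± 0.18, adjusted p = 0.31).

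For Tbx21 the ORAI inhibitor gave 88.8, 61.6 and 28.1 normalized counts and CsA gave 84.8, 105 and 68, against 175, 226 and 123 with restimulation alone. Every inhibitor library lay below every library of restimulation alone. In the fit of 24 libraries the differences of -1.64 ± 0.56 (adjusted p = 0.13) and -0.995 ± 0.56 (adjusted p = 0.44) were not called. In the fit of the 12 iTreg libraries, with a standard error of 0.34 for Tbx21, the ORAI inhibitor was called (adjusted p = 0.0077) and CsA was not (adjusted p = 0.090). edgeR and DESeq2 called Tbx21 lower under the ORAI inhibitor (adjusted p = 0.0094 and 0.00037) and not under CsA (adjusted p = 0.093 and 0.054). With only the groups compared, Tbx21 was called lower under both (adjusted p = 0.014 and 0.018). Over the 19 alternatives Tbx21 was called in 6 for the ORAI inhibitor and in 2 for CsA, with adjusted p from 0.0025 to 0.75 for CsA. Between the inhibitors the difference for Tbx21 was -0.65 ± 0.56, with an interval from -1.81 to 0.52. NK cell markers summed to 37 to 69.9 in restimulated iTregs, 66.7 to 80.1 with the ORAI inhibitor and 95.1 to 126 with CsA. Of that list Ncr1, Klrb1c and Klra8 were at 0 in all of these libraries, while Klrd1 and Klre1 were not. Tyrobp was at 0 in every library of restimulation alone, but not in every library of either inhibitor. A contribution of NK cells to these Tbx21 levels was not tested.

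Ahr had 29.6, 26.4 and 36.9 normalized counts with the ORAI inhibitor and 27.6, 28.7 and 26.4 with CsA, against 55.4, 41.5 and 65.4 with restimulation alone, and the groups did not overlap. The differences were -0.78 ± 0.33 (adjusted p = 0.27) and -0.92 ± 0.33 (adjusted p = 0.16) in the fit of 24 libraries, and adjusted p was 0.033 and 0.013 in the fit of 12 libraries. Among the 3 AHR targets Tiparp fell with the ORAI inhibitor (-0.70 ± 0.14, adjusted p = 0.0067) and was at -0.48 ± 0.14 with CsA (adjusted p = 0.072). Cyp1a1, named here after its values were seen, had 23.3 ± 5.36 normalized counts with the ORAI inhibitor and 8.51 ± 3.84 with CsA (SD, n = 3), against 16.5 ± 5.79, and was not called in either.

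Maf was at the level of restimulation alone with the ORAI inhibitor (877, 986 and 896 normalized counts, -0.01 ± 0.12, adjusted p = 0.99). With CsA its 3 libraries, at 1145, 1226 and 1102, were above all others in the series, by 0.32 ± 0.12 over restimulation alone (adjusted p = 0.16). Rora had 80.6, 89.8 and 75.5 with the ORAI inhibitor, below every library of restimulation alone, at -0.51 ± 0.15 (adjusted p = 0.065). Rora was called lower in 4 of the 19 alternatives, among them quantile normalization (-0.55, adjusted p = 0.047) and the fit without replicate 3 of the restimulated iTregs (-0.65, adjusted p = 0.034). With CsA Rora had 137, 112 and 88.8. Gata3 had 1047, 1179 and 845 with the ORAI inhibitor and 1211, 1201 and 934 with CsA, against 1406, 1382 and 1204 (-0.39 ± 0.13 and -0.26 ± 0.13, adjusted p = 0.14 and 0.38). The libraries of Bcl6, Eomes and Prdm1 overlapped between each inhibitor and restimulation alone. Over all 9 factors the median size of the difference was 0.39 with the ORAI inhibitor and 0.26 with CsA, against 0.13 and 0.14 for all genes tested. These sizes include the spread between libraries, and the standard errors of the factors ran from 0.12 for Maf to 0.56 for Eomes.

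With CsA 0 of the 9 factors were called by limma, where 1.59% of all genes tested were called (0.955% higher and 0.640% lower). By limma 3 of them had an unadjusted p below 0.05, and edgeR and DESeq2 also called 0. Between the ORAI inhibitor and CsA 0 were called by limma, edgeR and DESeq2, with 2 at an unadjusted p below 0.05 by limma, where 0.0853% of all genes were called (0.00853% higher and 0.0768% lower). Of 12 Th1 companions 3 were higher and 1 lower with the ORAI inhibitor, led by the death receptor ligand gene Fasl, which fell (-1.42 ± 0.33, adjusted p = 0.016), and Il18rap, which was higher (0.85 ± 0.20, adjusted p = 0.019). With CsA 1 was higher and 2 lower, Ifng (-2.73 ± 0.71, adjusted p = 0.037) and Fasl (-1.19 ± 0.33, adjusted p = 0.048). Ifng, the Th1 cytokine, had 16.8 ± 3.21 normalized counts in restimulated iTregs and 2.39 ± 2.58 with CsA (SD, n = 3), so that its level with CsA lies near the floor.

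Pairs of factors with opposed roles were also read as ratios within a library, which do not depend on the size factors other than through the pseudocount of 1. They are not scaled to gene length and are compared between groups only. The log2 ratio of Tbx21 over Gata3 was -5.50 ± 0.26 (SD, n = 3) in resting Tconvs and -3.53 ± 0.41 in activated Tconvs. It was -4.37 ± 0.48 in resting iTregs, -2.96 ± 0.34 in restimulated iTregs, -4.21 ± 0.66 with the ORAI inhibitor and -3.70 ± 0.17 with CsA. The libraries did not overlap in any of these 4 comparisons, and each gave an exact two-sided permutation p of 0.1, the smallest that 3 libraries against 3 allow (0.125 adjusted over 5 comparisons). In tTregs, where Tbx21 lies near the floor, it was -9.09 ± 1.01 at rest and -10.88 ± 1.43 after activation (exact permutation p = 0.2). Among the group means, that of restimulated iTregs was the highest and that of activated tTregs the lowest.

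The log2 ratio of Prdm1 over Bcl6 was near 0 at rest, at -0.04 ± 0.18 (SD, n = 3) in Tconvs and -0.21 ± 0.19 in tTregs. After activation it was 1.71 ± 0.33 in Tconvs and 1.11 ± 0.055 in tTregs, higher in every activated library than in every resting library of the same cell type. Resting iTregs had 1.88 ± 0.13 and restimulated iTregs 2.75 ± 0.44, again without overlap. For these 3 comparisons the exact permutation p was 0.1 (0.167 adjusted over 5). With the ORAI inhibitor and CsA the ratio was 2.62 ± 0.11 and 2.72 ± 0.56, and its libraries overlapped those of restimulation alone (exact permutation p = 0.7 and 1.0). In Tconvs the ratio rose while both transcripts fell, since Bcl6 fell more than Prdm1.

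**Figure D4:**
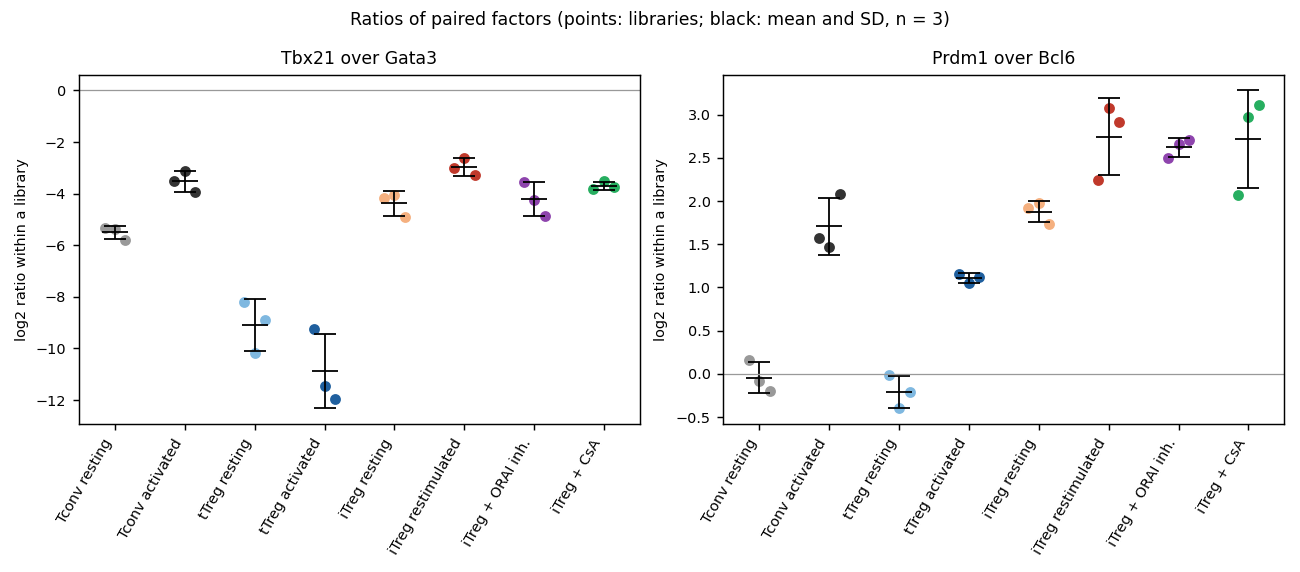
Log2 ratios of Tbx21 over Gata3 and of Prdm1 over Bcl6 within each library, with 1 point per library and the mean and SD of each group of 3. The first ratio is lowest in tTregs and highest in restimulated iTregs, and the second is near 0 in resting Tconvs and tTregs and between 1.46 and 3.11 in activated Tconvs and all iTregs.

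Across the 8 group means, as a description over points that share cell types, Rora and Bcl6 had the most similar patterns of any pair of factors (Pearson r = 0.957) and Eomes and Prdm1 the most opposed (r = -0.973). Tbx21 ran with Eomes (r = 0.881) and against Rora (r = -0.877), and Gata1 ran with Gata3 (r = 0.817). Over all genes tested, the pattern nearest to that of Tbx21 was that of Tmem199 (r = 0.989), and the nearest to Gata1 were Aldh18a1 (r = 0.990) and Myo18a (r = 0.986). For Maf they were Plekho1 (r = 0.985) and Tns2 (r = 0.983), for Ahr Ankrd50 (r = 0.976) and Edc3 (r = 0.975), and for Bcl6 Plekhm1 (r = 0.994) and Sertad2 (r = 0.994). For Gata3 they were Nrd1 (r = 0.983) and Zfp282 (r = 0.979), for Rora Akna (r = 0.994) and Nbeal1 (r = 0.993), for Eomes Dkc1 (r = 0.981) and Efcab7 (r = 0.978), and for Prdm1 Elac1 (r = 0.989) and Ccdc71 (r = 0.984). These genes were picked as the highest of 11725 over 8 points, so no p is given.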

How the data were processed

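RNA was measured in 24 libraries by a modified SMART-seq2 protocol, and the 16 ATAC-seq and CUT&Tag samples of the series were not analysed here. The table that the authors deposited holds scaled counts, a signal with its own size factor for each library, which gave back whole reads for 100% of values (tolerance 0.001). The submitters' processing notes name Cutadapt 1.18, STAR 2.5.3, RSEM 1.3.0, DESeq2 1.26 and the mm10/GRCm38 build. Deposited values were used without further scaling. Genes that reached 10 normalized counts in 3 or more libraries were tested with limma 3.58.1 in R 4.3.3 on log2(normalized count + 1), with a variance trend, one fit over 8 groups and Benjamini-Hochberg adjustment over all genes tested. Fold changes on this scale understate the change of low genes. Alternatives were edgeR 4.0.16 and DESeq2 1.42.0 on recovered reads, other pseudocounts, filters, scaling and sample sets, and each library left out. Ratios were tested by exact permutation (scipy 1.17.1). The fit was checked on simulated data. The factors and gene lists were chosen with earlier results of these data known. All 9 factors were named at every comparison, with at most 2 called genes of largest change per list and the 2 genes of most similar pattern per factor, of which one is not reported here.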

Additional observations from a re-analysis of the deposited data

Results flagged for a closer look

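Several factors responded to stimulation differently in different cell types, by the limma test of the difference itself (called at an adjusted p below 0.05 and a log2 size above 0.5). The 3 sets of differences share libraries, so they are not independent, and groups of 3 were not tested for outlying samples.

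Between Tconvs and tTregs, the log2 response to activation was larger in Tconvs by 4.26 for Tbx21, 4.55 for Eomes and 2.58 for Gata1. It was more negative in Tconvs for Rora (-2.25), Bcl6 (-1.58), Ahr (-1.56), Prdm1 (-1.15) and Maf (-0.71). The values of Tbx21 and Eomes rest on 0 to 7 reads per tTreg library and depend on the pseudocount.

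Between iTregs and tTregs, the response to restimulation minus that to activation was 2.43 for Tbx21, 1.89 for Ahr, 1.13 for Bcl6, 0.93 for Maf, -0.75 for Gata1 and -0.77 for Gata3. The calls of Tbx21 and of Gata1 were each lost in 7 of 23 alternatives, where adjusted p reached 0.16 and 0.11. The tTreg side of the Tbx21 value rests on 0 to 7 reads per library.

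Between iTregs and Tconvs, the same difference was 3.45 for Ahr, 2.71 for Bcl6, 2.37 for Rora, 1.82 for Prdm1 and 1.63 for Maf. It was -5.43 for Eomes, -3.33 for Gata1 and -1.27 for Gata3, and these 8 calls held in all 23 alternatives.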

How the results depend on the processing

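Over 2427 recomputed values of a factor in a comparison, 2312 kept their side of the threshold, 48 lost a call, 67 gained one and 0 called values reversed. Among those that kept their side, 35 values that were not called changed sign. For activation of tTregs, 2 factors were called with a pseudocount of 0.1, quantile normalization, the replicate block over 24 libraries, adjusted p alone, edgeR or DESeq2, and 1 to 4 with single libraries left out. For restimulation of iTregs, 5 were called in the fit of 12 libraries with or without the replicate block, with DESeq2 and when the fit held only the compared groups, and 3 to 4 with libraries left out. For the ORAI inhibitor, 0 were called with a pseudocount of 0.1, no filter or a size above 1, 2 with a pseudocount of 5, quantile normalization, edgeR or DESeq2, 3 in the fit of 12 libraries and 4 with its replicate block, and 0 to 1 with libraries left out. For CsA, 2 were called with only the groups compared or the replicate block over 12 libraries, and 1 in the fit of 12 libraries. With a size above 1, 3 were called both for the difference between iTregs and tTregs and for restimulated iTregs against activated Tconvs, and with libraries left out 4 to 7 and 4 to 5. The Prdm1 over Bcl6 ratio changed sign for the ORAI inhibitor without replicate 2 of the restimulated iTregs (0.044, range -0.37 to 0.044), and for CsA without replicate 1 of CsA (0.30) or replicate 2 or 3 of the restimulated iTregs (0.14 and 0.06, range -0.28 to 0.30). Apart from the fits of fewer libraries, where the T-box genes no longer carry the tTreg spread, the cause of these shifts was not tested.

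The correlations do not settle whether replicate numbers pair the samples. In 0 of 28 pairs of groups, and 0 of the 6 pairs within iTregs, did all same-numbered libraries correlate above 0.1. Within iTregs, deviations from group means had a mean correlation of 0.107 for same-numbered and -0.0536 for different-numbered libraries. Since the deviations within a group cancel out, the second value follows largely from the first and adds no contrast. With the replicate block over 24 libraries the ORAI inhibitor call of Gata1 was lost (adjusted p = 0.064) and Rora was called lower (adjusted p = 0.04996). With the block over the 12 iTreg libraries, the ORAI inhibitor was called for Rora (adjusted p = 0.015) and CsA for Tbx21 (adjusted p = 0.0025) and Ahr (adjusted p = 0.0090). Quantile normalization moved the median of all genes by over 0.1 in 3 comparisons of iTregs, from 0.04 to -0.11 against Tconvs at rest, from 0.03 to -0.09 against tTregs at rest and from 0.01 to -0.11 against Tconvs after stimulation. Depth limits Tbx21 and Eomes in tTregs and Ahr in activated Tconvs, where a few reads decide the level.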

Other observations

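In the 4 iTreg groups replicate 3 had the lowest Tbx21 and the lowest Rora of its group in 4 of 4 groups, a pattern seen after the data were examined. The labels do not say whether iTreg libraries of the same number share a culture.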
